A study of Peniophora incarnata with 12 samples.

Results

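A set of genes named after metal regulation or copper binding was followed through the mycelium of Peniophora incarnata T-7, a white-rot fungus that decays lignin and polysaccharides of plant material. It held A08176, annotated as the GATA-type transcription factor sreA, A17766, annotated as the copper-dependent transcription factor CUF1, and A12831, annotated as the probable GPI-anchored cupredoxin ARB_05732-1. The 3 genes were 3 of 16059 in the file, and 3 of the 13974 that reached 1 FPKM (fragments counted on a gene, scaled by gene length and library size) in at least 3 libraries. They were picked by name after their levels in these same 12 libraries were known, so their levels and differences are given as a description and carry no test. The wild type strain T-7 had been kept in the dark for 30 days at 28 °C and 75% relative humidity on rice straw, Chinese fir wood or poplar wood, each a powder sieved at 60 mesh, or on PDA (potato dextrose agar), the control medium. Biological replicates numbered 3 in each of 4 groups, and each plant material was a single material, so wood species and plant class cannot be told apart. Polyadenylated RNA of whole mycelium was sequenced with a stranded kit. In such bulk samples, fewer cells of a type and less RNA per cell cannot be told apart.

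Fungi keep iron and copper within narrow limits, because both metals are needed as cofactors of redox enzymes and both are toxic in excess. In Aspergillus, SreA represses genes of iron uptake when iron is plentiful, and the bZIP factor HapX represses genes that consume iron when iron is scarce. Cuf1 of the basidiomycete yeast Cryptococcus neoformans is a copper-sensing activator that acts on copper importers when copper is low and on metallothioneins when copper is high, and cupredoxins are small proteins that bind a single copper ion. White-rot fungi also place copper in laccases and heme iron in ligninolytic peroxidases. Of the described genes, sreA was the only one with its description, and its annotation terms were iron ion homeostasis and negative regulation of iron ion transport. The annotation of A17766 held copper ion binding, and that of A12831 held metal ion binding, the plasma membrane and the extracellular region.

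The libraries held 23398461 to 31132066 reads, worked back from the FPKM values. The 3 poplar wood libraries were least alike, with correlations of 0.865 to 0.95 over genes, against 0.967 to 0.989 within the other 3 groups. Chinese fir wood replicate 1, rice straw replicate 3 and PDA replicate 2 were each close to a weighted sum of the other 2 libraries of their group, with a chi-square per gene of 4.55 to 7.25, against 27.6 to 61.7 for the other libraries of these groups and 131 to 426 on poplar wood. Whether these 3 libraries are separate cultures was not tested, and results are given without them where a call or a count changed. FPKM are shares of a library, and the median log2 difference from PDA over all tested genes was -0.18 for poplar wood, -0.51 for Chinese fir wood and -0.25 for rice straw. Median-of-ratios scaling, which sets libraries to a common median ratio over genes, brought these medians to 0.02, -0.02 and -0.01.

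The 3 genes had 3 different orders of level over the substrates. The factor sreA was highest on rice straw and lowest on poplar wood, CUF1 was highest on poplar wood, and the cupredoxin was present on all 3 plant materials and near the limit of detection on PDA. For sreA and CUF1 the single libraries followed the order of the means for most pairs of groups, whereas the cupredoxin differed by up to 11.2-fold between replicates of a plant material and by up to 4.31-fold between the means of 2 plant materials.

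**Figure D1:**
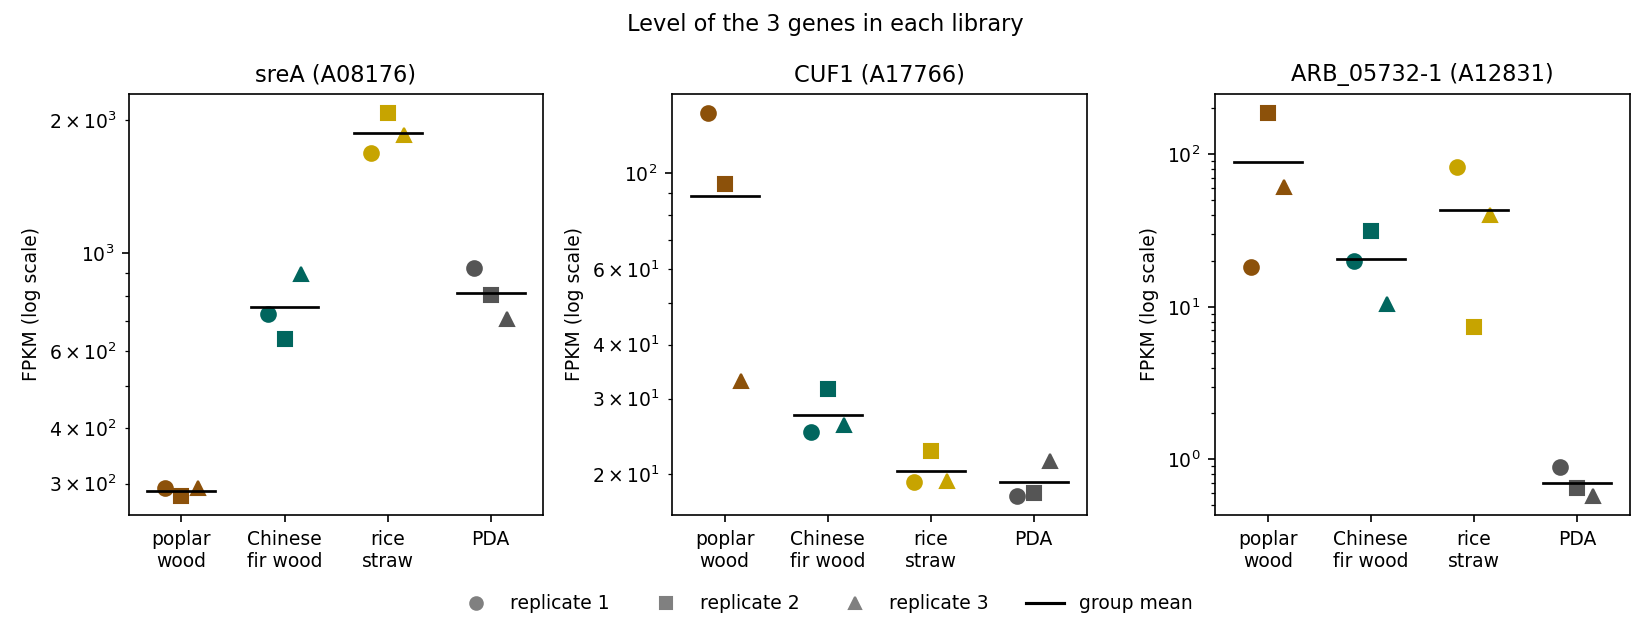
FPKM (log axis) of sreA, CUF1 and the cupredoxin ARB_05732-1 in each of the 12 libraries, with the symbol giving the replicate number and the bar the group mean (n = 3). The sreA points stand apart on poplar wood (281 to 294 FPKM) and on rice straw (1683 to 2079), the CUF1 points spread from 33 to 138 on poplar wood, and the cupredoxin points lie below 1 FPKM only on PDA.

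The transcript of sreA was abundant in every group, above 96.9% of tested genes even where it was lowest. On poplar wood sreA had 293, 281 and 294 FPKM in replicates 1, 2 and 3. On Chinese fir wood it had 728, 638 and 896 FPKM, on rice straw 1683, 2079 and 1848 FPKM, and on PDA 923, 802 and 709.9 FPKM. Every rice straw library was above, and every poplar wood library below, all other libraries, while the libraries on Chinese fir wood and PDA overlapped. The group means were 289 ± 7.34 FPKM on poplar wood, 754 ± 131 on Chinese fir wood, 1870.2 ± 199 on rice straw and 812 ± 107 on PDA (SD, n = 3 each). In order of level, rice straw stood 2.3-fold above PDA, PDA 1.08-fold above Chinese fir wood, and Chinese fir wood 2.61-fold above poplar wood, and of these neighbours PDA and Chinese fir wood did not separate beyond their spread on FPKM. After median-of-ratios scaling they did, in the other order, with 888, 815 and 1113 on Chinese fir wood, against 772, 658 and 582 on PDA.

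On the scale of mean log2(FPKM + 1), which is used for all differences here, sreA had -1.48 for poplar wood minus PDA and 1.21 for rice straw minus PDA. The value of poplar wood minus rice straw was -2.68. These 3 directions held under median-of-ratios scaling, with -1.25 for poplar wood minus PDA, 1.5 for rice straw minus PDA and -2.75 for poplar wood minus rice straw. The difference of Chinese fir wood minus PDA was -0.11 on FPKM and 0.48 after median-of-ratios scaling, so its sign depended on the scaling. Chinese fir wood minus rice straw was -1.32, and poplar wood minus Chinese fir wood was -1.36.

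On FPKM, the 3 poplar wood libraries, which differed strongly from each other over all genes, were nearly equal for sreA. The highest of them was 1.05 times the lowest, and their SD on the log2 scale was 0.04, where the median tested gene had 0.46. Only 0.6% of tested genes had a smaller SD on poplar wood, and 0.8% of the 782 genes within 2-fold of the level of sreA. After median-of-ratios scaling the 3 poplar wood libraries were less alike for sreA, at 322, 254 and 268. In the other groups the spread of sreA was ordinary, with SDs of 0.25 on Chinese fir wood, 0.15 on rice straw and 0.19 on PDA, at percentiles of 41.7 to 63.0. Counting error was small beside these spreads, because 9128 to 79466 reads stood behind each value.

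On FPKM, CUF1 showed the opposite extreme on poplar wood. It had 138, 94.4 and 33 FPKM in poplar wood replicates 1, 2 and 3, against 25.1, 31.6 and 26.0 on Chinese fir wood, 19.2, 22.7 and 19.3 FPKM on rice straw and 17.8, 18.1 and 21.5 on PDA. All poplar wood libraries were above all others, but replicate 3 was only just above the highest Chinese fir wood library, and after median-of-ratios scaling it was below all 3 of them (30.1 on poplar wood, against 30.6, 40.3 and 32.3 on Chinese fir wood). The Chinese fir wood libraries were above those of rice straw and PDA without overlap, and the rice straw and PDA libraries overlapped on FPKM. After the scaling all 3 rice straw libraries (20.9, 21.5 and 19.3) were above those of PDA (14.9, 14.8 and 17.7). FPKM means were 88.6 ± 52.9 on poplar wood, 27.5 ± 3.51 on Chinese fir wood, 20.4 ± 2.0 on rice straw and 19.2 ± 2.06 on PDA (SD, n = 3 each).

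In order of level, CUF1 on poplar wood was 3.22-fold above Chinese fir wood, Chinese fir wood 1.35-fold above rice straw, and rice straw 1.06-fold above PDA. The difference of poplar wood minus PDA was 1.93 on the log2 scale, 1.5 without poplar wood replicate 1 and 2.52 without poplar wood replicate 3, so these 2 libraries set its size. The SD of CUF1 on poplar wood was 1.05 (log2), above that of 92.3% of tested genes, and its SDs in the other groups were 0.13 to 0.17. Chinese fir wood minus PDA was 0.5 on FPKM and 1.07 after median-of-ratios scaling. Rice straw minus PDA was 0.09, or 0.36 after that scaling.

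A second gene, A10639, carried the same CUF1 description and the same coding length of 1629 bp. Genes of equal description and length were common in this annotation: they made up 29.4% of the 8356 described genes. Whether the pair are 2 alleles or near-identical copies cannot be told apart from these files, and reads could have been divided between them, so the level of each alone is uncertain. A10639 had 102, 73.0 and 35.5 FPKM on poplar wood, 37.3, 44.5 and 36.2 on Chinese fir wood, 18.1, 20.3 and 16.7 FPKM on rice straw and 19.5, 21.4 and 19.2 on PDA. Here poplar wood and Chinese fir wood overlapped, since poplar wood replicate 3 was below all 3 Chinese fir wood libraries, and both were above rice straw and PDA, which overlapped.

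The ratio of A17766 to A10639 was not constant. It was 1.36, 1.29 and 0.928 on poplar wood, 0.672 to 0.718 on Chinese fir wood, 1.06 to 1.16 on rice straw and 0.847 to 1.12 on PDA, so Chinese fir wood had the lowest ratios in all 3 libraries. A10639 was not one of the picked genes and was tested across all genes by limma with Benjamini-Hochberg adjustment. It was higher on poplar wood than on PDA by 1.64 ± 0.3 (log2 difference ± SE, adjusted p = 0.00108) and higher on poplar wood than on rice straw by 1.76 ± 0.3 (limma adjusted p = 0.000569). Since A17766 and A10639 may share reads, this is no separate evidence on A17766. Chinese fir wood minus PDA did not meet both thresholds for A10639 on FPKM (0.94, limma adjusted p = 0.0213, fold threshold of 1) and did after median-of-ratios scaling (1.51, limma adjusted p = 0.00374).

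The cupredoxin A12831 was the gene of the 3 with the widest range. On poplar wood it had 18.2, 187 and 61.4 FPKM in replicates 1, 2 and 3. On Chinese fir wood it had 20.1, 31.5 and 10.4 FPKM, on rice straw 82.1, 7.34 and 40.1 FPKM, and on PDA 0.886, 0.646 and 0.574 FPKM. Every library from plant material was above every PDA library, and the 3 plant materials overlapped each other. On PDA the values rested on 16, 12 and 11 reads, and the exact Poisson 95% intervals ran from 0.506 to 1.44 FPKM in replicate 1, from 0.334 to 1.13 in replicate 2 and from 0.286 to 1.03 in replicate 3. These intervals cover counting error only and are far below the lowest value on plant material. The gene passed the filter on low values only through the libraries grown on plant material.

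Mean levels of A12831 were 89.0 ± 87.8 FPKM on poplar wood, 20.7 ± 10.6 on Chinese fir wood, 43.2 ± 37.5 on rice straw and 0.702 ± 0.164 on PDA (SD, n = 3 each). The mean ratios to PDA were 127-fold for poplar wood, 29.4-fold for Chinese fir wood and 61.5-fold for rice straw. On the log2(FPKM + 1) scale, where the added 1 exceeds the PDA level and shrinks the change, the differences from PDA were 5.17, 3.55 and 4.17. With a pseudocount of 5 they were 3.55, 2.08 and 2.68, and their order over the substrates was kept. The neighbours in the order poplar wood, rice straw and Chinese fir wood did not separate beyond their spread. Chinese fir wood minus rice straw was -0.62, and 0.1 without rice straw replicate 1.

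Replicates of A12831 differed within every plant material. The highest library was 10.3 times the lowest on poplar wood, 3.04 times on Chinese fir wood and 11.2 times on rice straw. The SDs of 1.65, 0.76 and 1.7 (log2) were above those of 99.0%, 97.9% and 99.9% of tested genes in these groups, while the SD of 0.14 on PDA was at the 45.2 percentile. Chinese fir wood replicate 1, rice straw replicate 3 and PDA replicate 2 each lay between the other 2 libraries of their group for A12831 and also for sreA. For CUF1 this held on rice straw and PDA, but Chinese fir wood replicate 1 was the lowest (25.1 FPKM, against 31.6 and 26.0). Without these 3 libraries the differences from PDA were 5.14 for poplar wood, 3.48 for Chinese fir wood and 3.93 for rice straw in A12831, and -1.48, -0.1 and 1.21 in sreA.

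A12831 also had a partner of equal description and coding length (750 bp), A02533. This gene had 12, 102 and 31.2 FPKM on poplar wood, 9.89, 19.5 and 4.46 on Chinese fir wood, 45.2, 4.09 and 26.0 FPKM on rice straw and 1.5, 0.538 and 0.209 on PDA. Its libraries ranked as those of A12831 did within every group, with replicate 2 highest on poplar wood and Chinese fir wood and replicate 1 highest on rice straw and PDA. The ratio of A12831 to A02533 was 1.52 to 2.32 over the 9 libraries from plant material and 0.593 to 2.75 on PDA, where few reads stood behind it. The log2 differences of A02533 from PDA were 4.39 (poplar wood), 2.68 (Chinese fir wood) and 3.47 (rice straw). Like A12831 it passed the filter on low values only through plant material, and the pair may share reads, so these differences are given as a description.

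**Figure D2:**
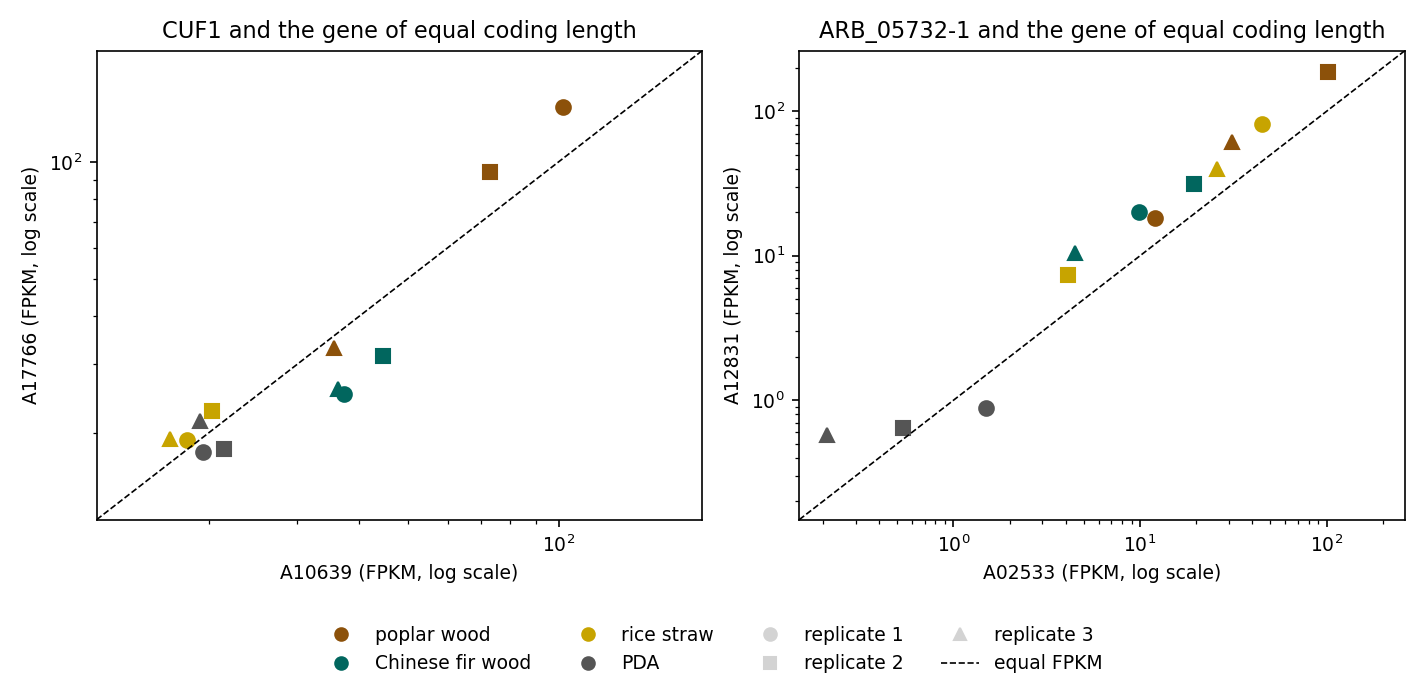
FPKM of A17766 against A10639 (left, both annotated CUF1) and of A12831 against A02533 (right, both annotated ARB_05732-1), each pair of equal coding length, one point per library on log axes with the line of equal FPKM. The Chinese fir wood points of CUF1 lie below the line (ratios of 0.672 to 0.718), and the 9 plant material points of the cupredoxin lie above it (1.52 to 2.32).

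The genes whose profiles were nearest to each of the 3 were sought among 7707 genes averaging 10 FPKM or more, described or not. Nearness was the root mean square (RMS) difference of log2(FPKM + 1) over the 12 libraries after centring each gene. Only described genes are named, and undescribed genes ranked between some of them. Nearest to sreA was CRZ1 (A01530, named after the calcineurin-dependent factor that acts in calcium signalling), at an RMS difference of 0.24, where sreA itself had an RMS of 0.96 about its mean. CRZ1 averaged 226 FPKM on poplar wood, 477 on Chinese fir wood, 1397.5 on rice straw and 519.7 on PDA, which is the order of sreA. The next were a short-chain dehydrogenase (A06054, RMS difference 0.3), MAM3 (A05767, 0.3), an UNC93-like protein (A17940, 0.31) and palC (A06427, 0.31), which in Aspergillus belongs to the signalling of ambient pH. All 5 were lowest on poplar wood and highest on rice straw in every library.

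The described gene nearest to CUF1 was its partner A10639 (rank 2 over all 7707 genes), at an RMS difference of 0.32 against an own RMS of 0.89. The next was A01312 (0.36), annotated as proliferating cell nuclear antigen, the sliding clamp of DNA replication. Its coding length was 4278 bp, and that identity was not checked. After it came the mitochondrial RNA helicase suv3 (A06391, 0.39), the sulfite efflux pump SSU1 (A06479, 0.4) and the glycerol-3-phosphate acyltransferase GPT2 (A12134, 0.42). SSU1 averaged 118 FPKM on poplar wood, 38.9 on Chinese fir wood, 19.9 on rice straw and 27.6 on PDA. For the cupredoxin A02533 was nearest (0.4 against an own RMS of 2.2). The next were taf13 (A16076, 1.05), aspergillopepsin-2 (A03170, 1.09), a secreted protease, the endoxylanase xynA (A13980, 1.09) and the hydrophobin SC3 (A09953, 1.1). The likeness was sought in the values themselves, so these distances carry no test.

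**Figure D3:**
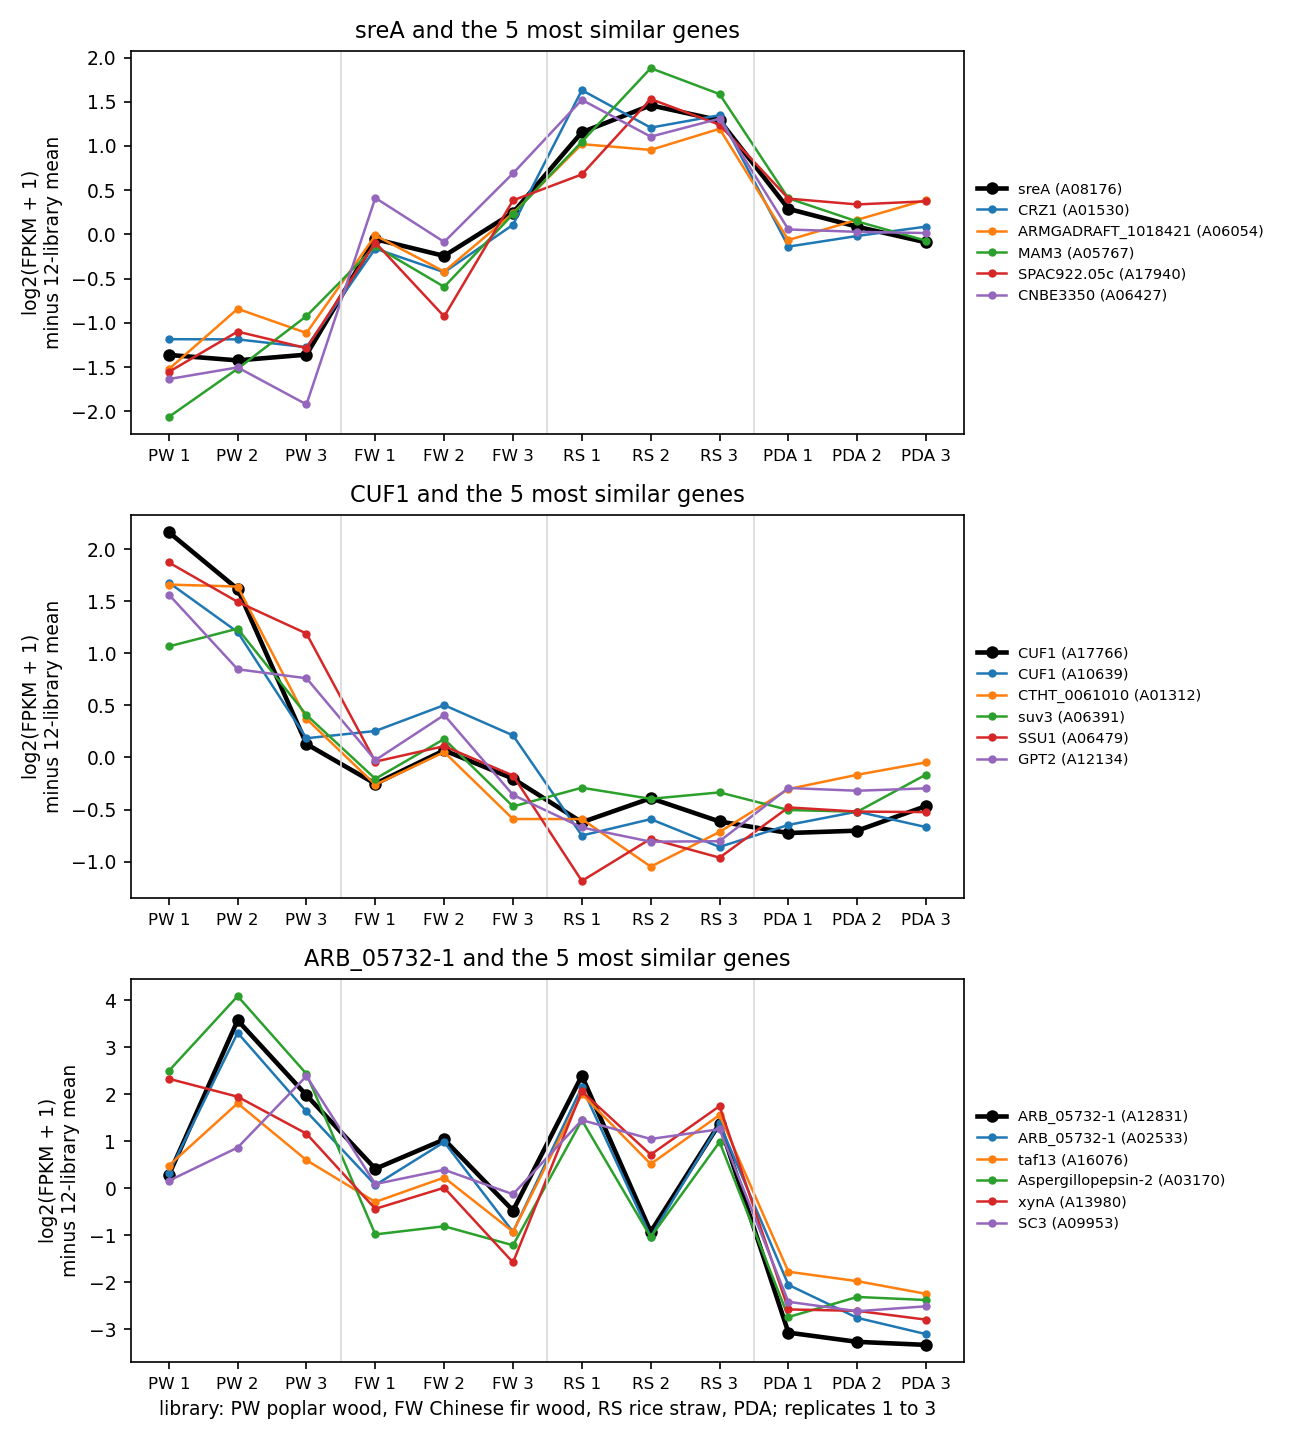
Centred log2(FPKM + 1) of sreA, CUF1 and ARB_05732-1 (black) and of the 5 described genes nearest to each (colours) over the 12 libraries, with lines joining libraries to help the eye only. The genes near sreA stay close to it (RMS difference 0.24 to 0.31), whereas behind A02533 the genes near the cupredoxin stand off by 1.05 to 1.1.

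The genes that iron regulators of other fungi act on were taken from lists built on descriptions. Over the 12 lists of metal genes together, 148 genes apart from the 3 were tested. A gene was called at an adjusted p under 0.05 over all tested genes and an absolute log2 difference of at least 1. On poplar wood 20 of the 148 rose and 27 fell relative to PDA, against a background of 8.3% of all tested genes higher and 17.1% lower. On Chinese fir wood 23 rose and 33 fell (background 5.91% and 24.5%), and on rice straw 22 rose and 19 fell (background 6.81% and 14.1%). The medians of the 148 were -0.28, -0.35 and -0.16, beside the all-gene medians of -0.18, -0.51 and -0.25. Median-of-ratios scaling changed the splits to 25 and 20 on poplar wood, 36 and 14 with Chinese fir wood and 29 and 13 with rice straw. Over all 13974 tested genes that scaling gave 1576 higher and 1764 lower, 1637 and 1534, and 1397 and 1153 in the same comparisons, against 1160 and 2396, 826 and 3430, and 952 and 1971 on FPKM. Without the 3 intermediate libraries the 148 gave 17 and 20, 15 and 23, and 9 and 14, beside 845 and 1870, 554 and 2319, and 484 and 962 of all tested genes. All 3 comparisons used the same PDA libraries.

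Among the regulators, hapX (A04019) had the same extremes as sreA at the rice straw end only. It had 25.1, 65.9 and 33.9 FPKM on poplar wood, 18.3, 16.4 and 17.8 on Chinese fir wood, 179, 131 and 150.4 FPKM on rice straw and 90.1, 90.9 and 87.2 on PDA. No group overlapped another, with rice straw highest and Chinese fir wood lowest, and poplar wood spread most. By limma hapX fell by 2.29 (SE 0.28) on Chinese fir wood relative to PDA (adjusted p = 5.22e-05), and by 1.2 (SE 0.28) on poplar wood (limma adjusted p = 0.00497), the second being lost without poplar wood replicate 1, without the 3 intermediate libraries and under median-of-ratios scaling (-0.98). On rice straw its difference from PDA was 0.76 (limma adjusted p = 0.0511), or 1.05 after that scaling (limma adjusted p = 0.00861). On Chinese fir wood hapX was below all PDA libraries, where sreA overlapped PDA on FPKM and was above it after the scaling.

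URBS1 (A08844), named after a GATA factor that represses siderophore genes in Ustilago maydis, fell by 1.47 (SE 0.27) on Chinese fir wood relative to PDA (limma adjusted p = 0.000895), and by 0.89 after median-of-ratios scaling, which is under the fold threshold. Its means were 55.9 FPKM on poplar wood, 26.4 on Chinese fir wood, 58.7 on rice straw and 73.4 on PDA, so its lowest substrate was not that of sreA. Of the other 3 tested siderophore genes, none was called against PDA, and their means were between 4.19 and 15.4 FPKM.

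For reductive iron uptake, 19 genes were tested (ferric reductases, permeases and the like). On poplar wood 3 rose and 3 fell relative to PDA (background 8.3% and 17.1%). On Chinese fir wood 4 rose and 3 fell (background 5.91% and 24.5%), and on rice straw 6 rose and 0 fell (6.81% and 14.1%). The list medians were 0.13, 0.0 and 0.79. Under median-of-ratios scaling the counts were 3 and 2, 5 and 1, and 9 and 0, and without the 3 intermediate libraries 3 and 2, 2 and 3, and 3 and 0. On rice straw, where sreA was highest, FRE2 (A09095), a ferric and cupric reductase, averaged 119 FPKM against 7.99 on PDA (log2 difference 3.74 ± 0.15, limma adjusted p = 1.11e-07). Both genes described as the permease ftrA, named here after their values were seen, also rose on rice straw, A17872 by 1.85 ± 0.29 and A14625 by 1.26 ± 0.2 (limma adjusted p = 0.000507 for each). A17872 also fell by 1.13 (SE 0.29) on poplar wood (limma adjusted p = 0.0086), a call lost without poplar wood replicate 1, PDA replicate 1 or the 3 intermediate libraries and under median-of-ratios scaling.

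The most abundant uptake gene, the reductase frp2 (A10781), was called higher on both woods. It averaged 1275.3 FPKM on poplar wood, 1083.4 on Chinese fir wood, 533 on rice straw and 463 on PDA. It rose by 1.45 ± 0.19 on poplar wood (limma adjusted p = 0.000114) and by 1.2 ± 0.19 on Chinese fir wood (limma adjusted p = 0.000342). On poplar wood, where sreA was lowest, another frp2 gene (A07927) had 1.73, 4.53 and 0.568 FPKM, against 152, 83.2 and 11.1 on PDA (log2 difference -4.23 ± 0.81, limma adjusted p = 0.00146). FRE3 (A02437) fell by 1.87 (SE 0.26) on poplar wood (limma adjusted p = 0.000185) and by 2.05 (SE 0.26) on Chinese fir wood (limma adjusted p = 7.53e-05), and on rice straw its difference was 0.89 (limma adjusted p = 0.0205), or 1.17 after median-of-ratios scaling, which is past both thresholds (limma adjusted p = 0.00547).

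Between substrates, most uptake genes called against rice straw were higher on rice straw. For poplar wood minus rice straw, 2 of the 19 uptake genes were called higher and 7 lower (background 14.4% and 14.4%). For Chinese fir wood minus rice straw, 2 were higher and 8 lower (background 5.7% and 14.2%), and for poplar wood minus Chinese fir wood 0 were higher and 1 lower (background 17.5% and 6.73%). The single gene of that last comparison was frp2 A07927 (-5.92 ± 0.81, limma adjusted p = 0.000206). Under median-of-ratios scaling the 3 splits were 2 and 7, 2 and 6, and 0 and 2, and without the 3 intermediate libraries 2 and 6, 1 and 6, and 0 and 1.

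Genes of iron storage and use varied by substrate. CCC1 (A17799), named after the yeast vacuolar iron importer, rose by 1.3 ± 0.28 on poplar wood (limma adjusted p = 0.00281) and by 1.17 ± 0.28 on Chinese fir wood (limma adjusted p = 0.00425), averaging 89.8 FPKM on poplar wood, 77.2 on Chinese fir wood, 36.3 on rice straw and 33.9 on PDA. The call on poplar wood was lost without poplar wood replicate 1 and that on Chinese fir wood without the 3 intermediate libraries. A10594, of the same description and length, may share reads with it and was not called against PDA on FPKM, but was on Chinese fir wood after median-of-ratios scaling (1.15 against 0.57 on FPKM, limma adjusted p = 0.00583 against 0.0627). Frataxin (A04245) averaged 36.5 to 40.1 FPKM in all 4 groups. Of 18 genes of iron-sulfur cluster assembly, 1 rose and 3 fell on poplar wood, 0 rose and 7 fell on Chinese fir wood and 0 rose and 5 fell on rice straw, or 1 and 3, 2 and 4, and 0 and 3 under median-of-ratios scaling, and 1 and 4, 0 and 6, and 0 and 4 without the 3 intermediate libraries. DRE2 (A08117), which acts early in the cytosolic pathway, fell on all 3, by 1.51, 2.21 and 1.25 (SE 0.18 each, limma adjusted p = 5.6e-05, 2.73e-06 and 0.000288), the call on rice straw being lost under that scaling.

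Heme synthesis places iron in a porphyrin ring. Of the genes named below, hem1 and HEM13 were lowest on poplar wood, while SPCC1739.06c and pft-1 were highest there. Of 10 genes, 1 rose and 3 fell on poplar wood (background 8.3% and 17.1%). On Chinese fir wood 3 rose and 1 fell (background 5.91% and 24.5%), and on rice straw 1 rose and 0 fell (6.81% and 14.1%). Under median-of-ratios scaling the counts were 1 and 3, 3 and 0, and 1 and 0. Without the 3 intermediate libraries these counts were 0 and 3, 1 and 0, and 0 and 0. The first enzyme of the pathway, 5-aminolevulinate synthase hem1 (A03111), had 37.0, 41.2 and 23.6 FPKM on poplar wood, 269.6, 211 and 324 on Chinese fir wood, 157, 138 and 149.6 FPKM on rice straw and 96.4, 101 and 103 on PDA. No groups overlapped, with Chinese fir wood highest and poplar wood lowest, and a second hem1 gene of equal length (A08438) makes the level of each uncertain. It fell by 1.57 (SE 0.22) on poplar wood (limma adjusted p = 0.00018) and rose by 1.39 ± 0.22 on Chinese fir wood (limma adjusted p = 0.000338). Coproporphyrinogen oxidase HEM13 (A04228) fell by 1.8 (SE 0.36) on poplar wood (limma adjusted p = 0.00185). It rose by 1.41 ± 0.36 on rice straw (limma adjusted p = 0.00925), a call lost without the 3 intermediate libraries. HEM13 was also called higher on Chinese fir wood (1.05 ± 0.36, limma adjusted p = 0.0283), where its libraries overlapped those of PDA. After median-of-ratios scaling that difference was 1.64 (limma adjusted p = 0.0026).

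**Figure D4:**
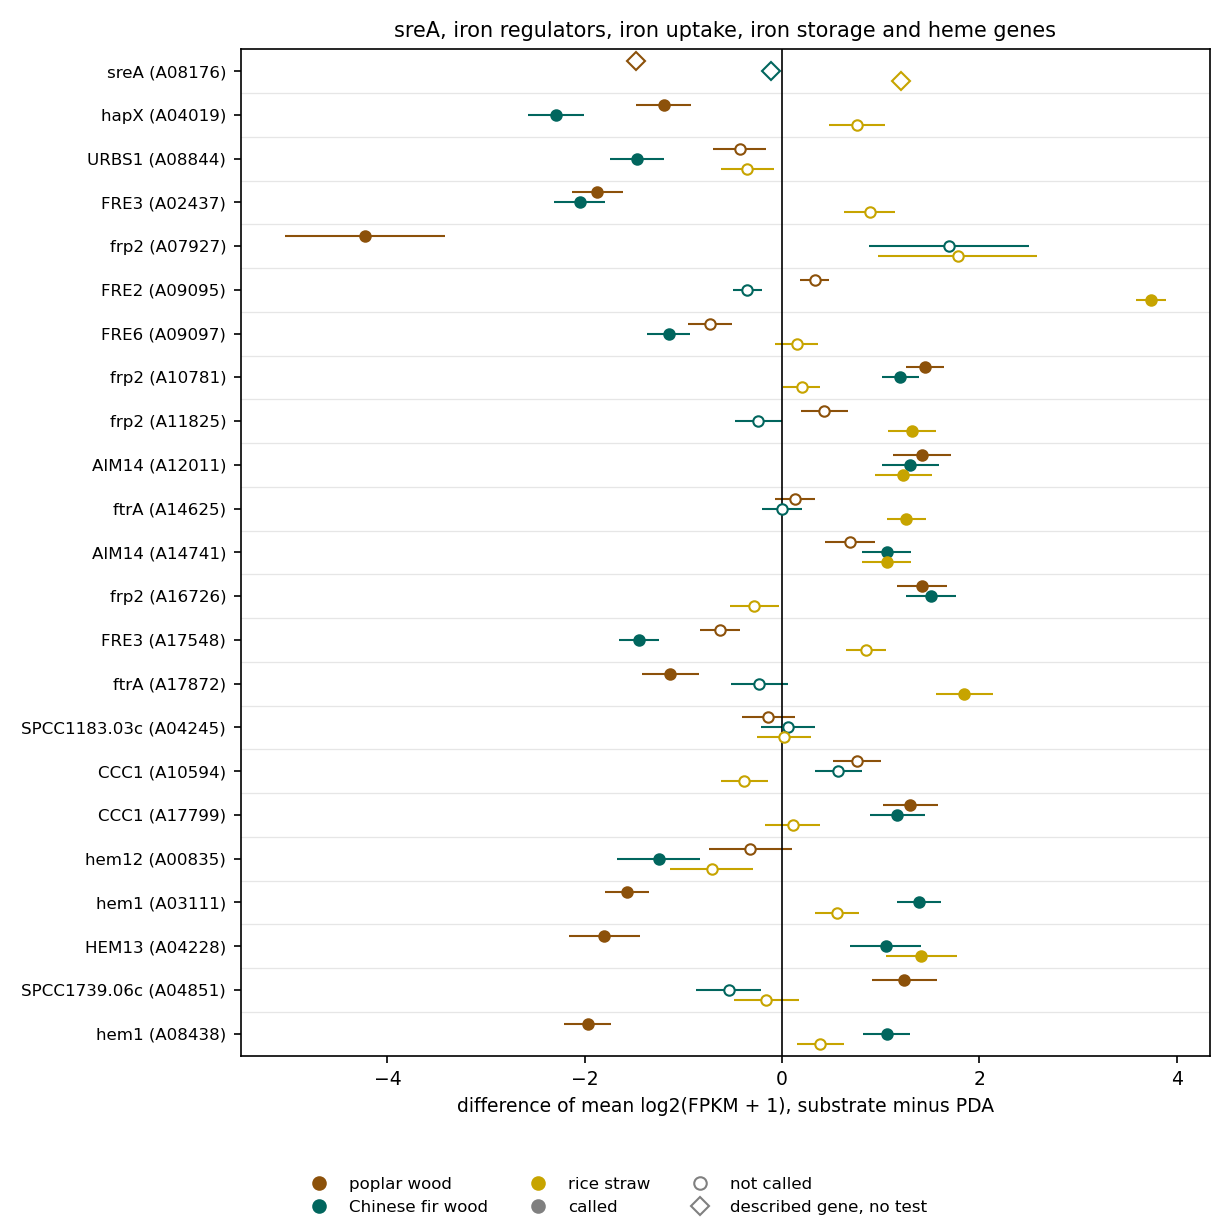
Difference of mean log2(FPKM + 1), substrate minus PDA, for sreA and genes of iron regulation, uptake, storage and heme synthesis, with bars of 1 SE from limma, filled where called and open where not. Open diamonds mark sreA, which was not tested (-1.48, -0.11 and 1.21), and rice straw points of FRE2 (3.74) and ftrA A17872 (1.85) stand to the right.

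Copper transporters, chaperones and pumps include targets of Cuf1 in Cryptococcus. Of 11 tested, 1 rose and 0 fell on poplar wood (background 8.3% and 17.1%). On Chinese fir wood 1 rose and 1 fell (background 5.91% and 24.5%), and on rice straw 1 rose and 0 fell (6.81% and 14.1%). The medians were 0.05, 0.06 and 0.0. Under median-of-ratios scaling the counts were 1 and 0, 4 and 0, and 2 and 0, and without the 3 intermediate libraries 1 and 0, 1 and 0, and 0 and 0. On poplar wood the gene called was ccc2 (A07693), a copper pump of the secretory pathway. It had 23.4, 17.5 and 18.9 FPKM there, against 10.1, 8.83 and 7.49 on PDA (log2 difference 1.09 ± 0.18, limma adjusted p = 0.000487). This call was lost without poplar wood replicate 1 (0.98) and without PDA replicate 3. More abundant ccc2 genes were not called on poplar wood. A11136 averaged 70.9 FPKM there against 61.0 on PDA, and A19051 69.5 against 60.6. The call on rice straw was SCO1 (A10137, 1.49 ± 0.41, limma adjusted p = 0.0149), a copper chaperone of cytochrome c oxidase, and it was lost without rice straw replicate 2, without PDA replicate 3 and without the 3 intermediate libraries. The importer ctrA2 (A17538) averaged 40.5 FPKM on poplar wood, 40.5 on Chinese fir wood, 84.1 on rice straw and 46.3 on PDA. It was not called against PDA on FPKM (0.85 on rice straw, limma adjusted p = 0.0323) and was called higher on rice straw after median-of-ratios scaling (1.14, limma adjusted p = 0.0148). Another ctrA2 gene, A04243, was more abundant and lowest on rice straw. It averaged 274.4 FPKM on poplar wood, 184.6 on Chinese fir wood, 149.9 on rice straw and 254.1 on PDA. A04243 was not called against PDA (-0.76 on rice straw, limma adjusted p = 0.0568).

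Copper enzymes had calls in both directions on every substrate. Of 25 laccases, 5 rose and 5 fell on poplar wood (background 8.3% and 17.1%). On Chinese fir wood 10 rose and 2 fell (background 5.91% and 24.5%), and on rice straw 6 rose and 4 fell (6.81% and 14.1%). Of 26 other copper oxidases and copper-zinc superoxide dismutases, 4 rose and 9 fell, 2 rose and 6 fell, and 4 rose and 2 fell on the same substrates. Under median-of-ratios scaling the laccase counts were 6 and 5, 11 and 1, and 6 and 4, and those of the other copper enzymes were 6 and 6, 4 and 5, and 5 and 1. Without the 3 intermediate libraries they were 4 and 3, 9 and 0, and 4 and 4 for laccases, and 4 and 7, 1 and 5, and 1 and 1 for the others. LCC2 (A15469) averaged 442 FPKM on poplar wood, 367 on Chinese fir wood, 10.6 on rice straw and 6.89 on PDA, with a rise of 5.5 ± 0.56 on poplar wood (limma adjusted p = 1.83e-05). The superoxide dismutase SOD1 (A03232), an enzyme whose activity an annotation term of CUF1 names, rose on poplar wood by 1.21 ± 0.29 (limma adjusted p = 0.00537), and the call was lost without poplar wood replicate 3. Its means were 95.3 FPKM on poplar wood, 45.7 on Chinese fir wood, 37.3 on rice straw and 37.9 on PDA, the order of CUF1 for the first 2 groups.

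The cupredoxin description was held by 7 further genes. Of these, 3 rose and 0 fell on poplar wood (background 8.3% and 17.1%). On Chinese fir wood 2 rose and 1 fell (background 5.91% and 24.5%), and on rice straw 4 rose and 1 fell (6.81% and 14.1%). The medians were 1.29, 0.56 and 1.74. Under median-of-ratios scaling the counts were 4 and 0, 3 and 0, and 4 and 0, and without the 3 intermediate libraries 2 and 0, 1 and 0, and 1 and 0. Leaving out single libraries gave 3 to 5, 1 to 2 and 2 to 4 that rose. In each of the 3 comparisons 1 of those that rose was A02533, which passed the filter on low values only through plant material. A00698, also counted as risen on rice straw, averaged 6.07 FPKM there and 0.642 on PDA. Its PDA level was thus under the 1 FPKM of the filter, so its call has the same limit. The most abundant, A07847, averaged 698 FPKM on poplar wood, 718 on Chinese fir wood, 529 on rice straw and 146 on PDA, so it was well expressed on PDA, where A12831 had 0.702. A10756 averaged 647 FPKM on poplar wood, 406 on Chinese fir wood, 117 on rice straw and 260.2 on PDA. It rose by 1.35 ± 0.26 on poplar wood (limma adjusted p = 0.00143) and fell by 1.09 (SE 0.26) on rice straw (limma adjusted p = 0.00627), the second being lost without PDA replicate 3, without the 3 intermediate libraries and under median-of-ratios scaling. A11306 rose by 2.58 ± 0.51 on rice straw (limma adjusted p = 0.00212), with 12.4, 16.1 and 14.6 FPKM there, against 1.9, 1.72 and 1.11 on PDA. The rice straw libraries of A11306 were close to each other, unlike those of A12831 and A02533.

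**Figure D5:**
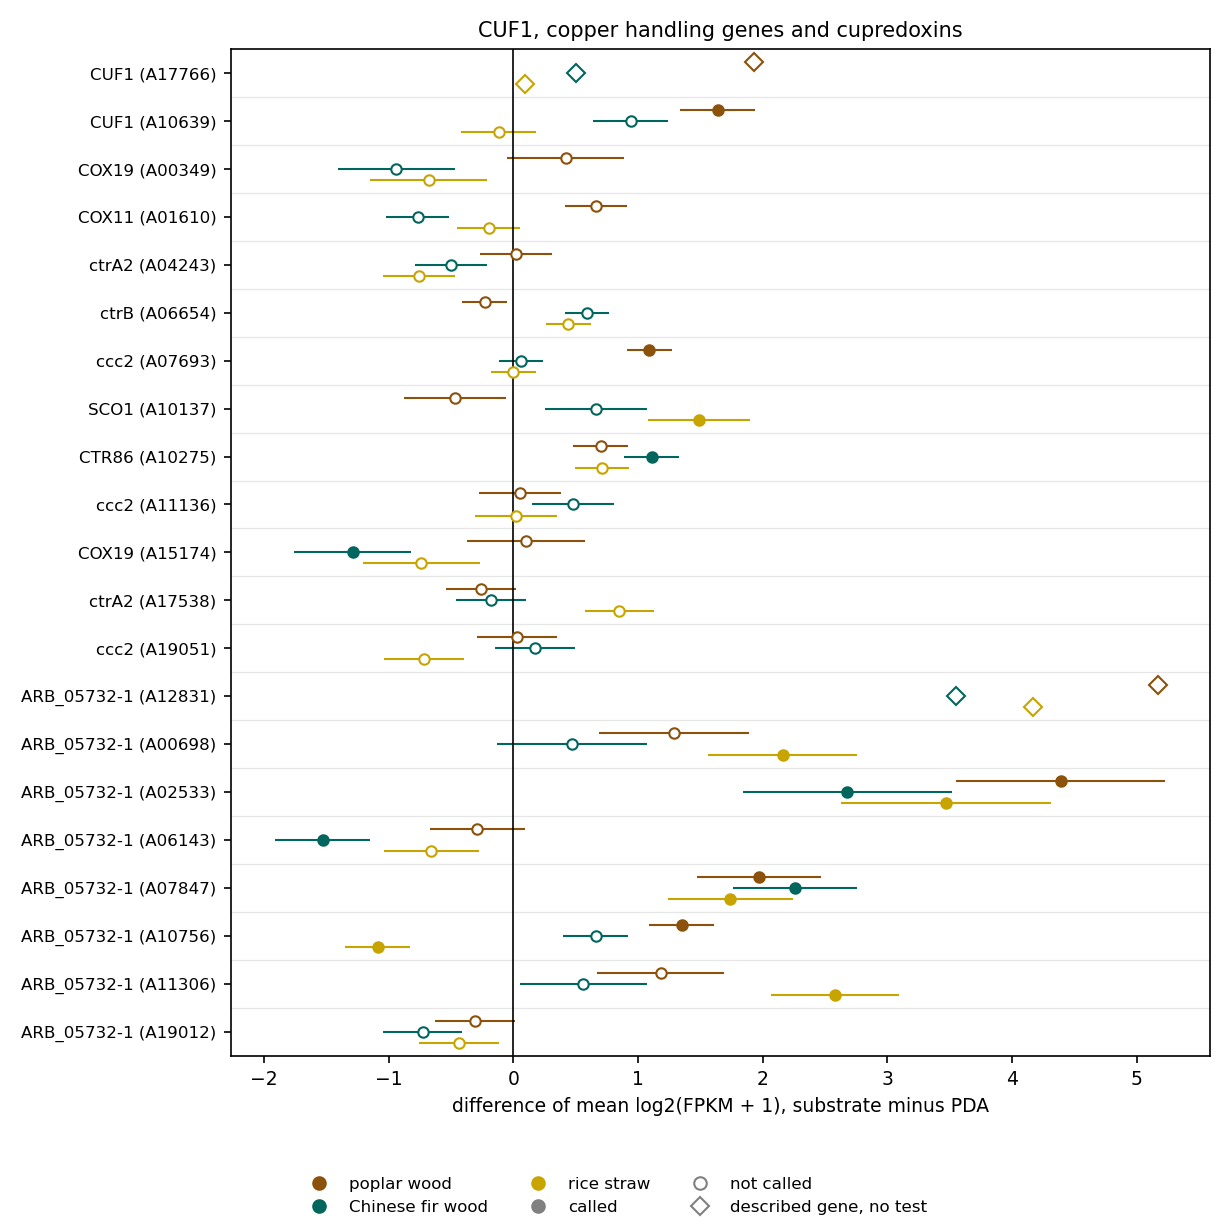
Difference of mean log2(FPKM + 1), substrate minus PDA, for CUF1, genes of copper handling and the cupredoxins, with bars of 1 SE from limma, filled where called and open where not. Open diamonds mark CUF1 (A17766) and ARB_05732-1 (A12831), which were not tested. A02533 passed the filter on low values only through plant material, and A00698 averaged 0.642 FPKM on PDA, under that filter. Most copper handling genes lie near 0 (list medians of 0.05, 0.06 and 0.0).

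Zinc and manganese transporters formed a further list of metal genes. Of 13 tested, 0 rose and 2 fell on poplar wood (background 8.3% and 17.1%). On Chinese fir wood 0 rose and 5 fell (background 5.91% and 24.5%), and on rice straw 0 rose and 5 fell (6.81% and 14.1%). Under median-of-ratios scaling the counts were 0 and 1, 0 and 1, and 1 and 3. Without the 3 intermediate libraries they were 0 and 1, 0 and 3, and 0 and 3. The manganese transporter SMF1 (A04759) had the order of sreA in its means, with 34.5 FPKM on poplar wood, 64.1 on Chinese fir wood, 350.2 on rice straw and 176 on PDA. It fell by 2.38 (SE 0.28) on poplar wood (limma adjusted p = 5.6e-05), and on rice straw its difference of 0.99 (limma adjusted p = 0.017) was under the fold threshold on FPKM and above it after median-of-ratios scaling (1.28, limma adjusted p = 0.00218). The zinc transporter ZRT2 (A11159) ran the other way on rice straw, with 14.0, 15 and 13.5 FPKM, against 265, 532 and 741 on PDA (log2 difference -4.96 ± 0.5, limma adjusted p = 2.38e-05). Of 23 housekeeping genes (actins, tubulins, elongation factor 1-alpha and TATA-binding protein), 0 rose and 2 fell on poplar wood, 1 rose and 5 fell on Chinese fir wood, and 1 rose and 3 fell on rice straw, with medians of -0.09, -0.07 and 0.11. Under median-of-ratios scaling the counts were 0 and 1, 4 and 1, and 2 and 2, with medians of 0.13, 0.51 and 0.39, so on Chinese fir wood the balance of their calls turned with the scaling.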

How the data were processed

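The authors deposited FPKM for 16059 genes in 12 libraries, with symbols, descriptions and annotation terms. The submitters' processing notes name HTSeq, DESeq2, HISAT2 and fastp without stating what each did. A genome build was not given in the sources used here. Reads per gene were worked back from the steps between FPKM values and were whole within 0.001 for 16059 of 16059 genes. The lengths found this way are called coding lengths, which was not checked against an annotation.

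Genes that 3 or more libraries held at 1 FPKM or above were tested (13974), on log2(FPKM + 1). A single limma fit over the 4 groups (eBayes with a mean-variance trend) gave 6 comparisons, with Benjamini-Hochberg adjustment over all tested genes. It was tested on simulated data with known changes. A gene was called at an adjusted p under 0.05 and an absolute difference of at least 1. SEs are limma's and rest on 1 spread per gene over all groups. The p-values rest on this pooled spread between libraries within groups, not on that of the 2 groups compared. The median tested gene had an SD of 0.46 (log2) on poplar wood and 0.15 to 0.19 in the other groups. A fit of only the 2 groups gave 931 higher and 2061 lower genes for poplar wood minus PDA, against 1160 and 2396.

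The 3 genes and the gene lists were chosen with earlier results of these data known. Lists were built by patterns on descriptions and could share genes. Named list genes were, in each comparison, the most abundant called gene that rose and that fell with groups that do not overlap, and every gene of lists with 5 or fewer tested genes. Other genes of a picked gene's description were added, as were the described genes with the 5 nearest profiles. The report names a subset of these.

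Deviations of same-numbered libraries of different groups correlated at -0.19 to 0.33 over 18 pairs, with 2 of the pairs over 0.1. These were poplar wood with Chinese fir wood in replicate 3 (0.33) and poplar wood with rice straw in replicate 1 (0.24). Replicate numbers were not taken as pairs. Alternatives were pseudocounts of 0.1 and 5, TPM, median-of-ratios scaling, no filter, a filter at 5 FPKM, adjusted p alone, a fit of only the 2 groups compared, a replicate block, voom on the worked-back reads, and leaving out each library or the 3 intermediate ones. No sequences were used. The fits used limma 3.58.1 in R 4.3.3. Other steps used Python 3.11.15, with matplotlib 3.10.9, scipy 1.17.1, numpy 2.4.6 and pandas 2.3.3.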

Additional observations from a re-analysis of the deposited data

Results flagged for a closer look

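Each result here was singled out because every library on one substrate was above all PDA libraries and every library on another was below them. Only sreA, CUF1, A12831 and the named list genes were searched. Tested genes also had to be called on both substrates against PDA and between these substrates. For sreA (A08176) the value of poplar wood minus rice straw was -2.68, and this difference was not tested. For hem1 (A03111), poplar wood minus Chinese fir wood was -2.96 (limma adjusted p = 4.97e-06). For HEM13 (A04228), poplar wood minus rice straw was -3.21 (limma adjusted p = 2.88e-05). For the cupredoxin A10756, poplar wood minus rice straw was 2.44 (limma adjusted p = 1.95e-05), with the poplar wood libraries above PDA and the rice straw libraries below. The tyrosinase ustQ (A16118) was at 0.449 to 1.06 FPKM on Chinese fir wood, and at 33.5 to 41.8 on poplar wood, 39.0 to 45.1 on rice straw and 11.1 to 21.2 on PDA. Its value was 4.54 for poplar wood minus Chinese fir wood (limma adjusted p = 5.25e-07) and -4.71 for Chinese fir wood minus rice straw (limma adjusted p = 2.62e-07).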

How the results depend on the processing

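Of 276 recomputed counts of called metal genes, 263 stayed within 1.5 times the reported count, and of 198 recomputed differences of sreA, CUF1 and A12831, 185 moved by less than the spread between replicates and 4 changed sign. Under median-of-ratios scaling, Chinese fir wood against PDA gave 36 genes higher and 14 lower (reported 23 and 33), and poplar wood against Chinese fir wood gave 9 higher (reported 17). Under the same scaling sreA differed from PDA by -1.25 on poplar wood, 0.48 on Chinese fir wood and 1.5 with rice straw, and CUF1 by 1.07 with Chinese fir wood and 0.36 with rice straw. With adjusted p alone the counts were 43 lower on poplar wood (reported 27), 32 lower on rice straw (19), and 35 and 42 higher on poplar wood than on Chinese fir wood and rice straw (17 and 23), since no fold was asked for. With a pseudocount of 5, poplar wood minus Chinese fir wood gave 11 higher and Chinese fir wood minus rice straw 14 lower, and A12831 differed from PDA by 3.55 on poplar wood, 2.08 on Chinese fir wood (4.57 with 0.1) and 2.68 on rice straw.

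Without the 3 intermediate libraries, which leaves fewer samples, 15 genes were higher on Chinese fir wood than on PDA, 9 were higher on rice straw than on PDA (reported 22), and Chinese fir wood minus rice straw gave 12 higher and 14 lower (20 and 24). Leaving out single libraries gave 13 to 25 higher genes for poplar wood minus Chinese fir wood, and 18 to 23 for rice straw minus PDA. A replicate block gave 20 higher and 26 lower on poplar wood against PDA, 23 and 34 on Chinese fir wood, and 22 and 19 on rice straw, close to the reported counts. Depth limits A12831 on PDA, at 11 to 16 reads a library. The cause of the other shifts was not tested.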
